A study of Mus musculus with 12 samples.

Results

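The comparison described here is that of neonatal Srf knockout (KO) with control (CTRL) cardiomyocytes (CMs, the muscle cells of the heart wall) at postnatal day (P) 14, over 3 KO and 3 CTRL samples of the 12 samples in the series. KO mice were Srf-flox/flox and CTRL mice were Srf-flox/+, so that CTRL CMs also lost a copy of Srf after Cre had acted and kept the other. Both genotypes also had a Cre-activated fluorescent reporter and were injected at P1 with AAV9-cTNT-Cre, a virus that makes Cre under the cardiac troponin T promoter. The virus was given at a low dose that reaches only a part of the CMs, and fluorescent CMs were isolated by collagenase perfusion and sorted by flow cytometry at P14. Per the study's methods, the mice were on a mixed genetic background. The other 6 samples are CMs that were given the virus at P60 and collected at P90. Of 23337 genes in the table, 12546 passed the filter on low counts and were tested. The question addressed is which functions beyond the sarcomere and the mitochondria differed between KO and CTRL: signalling, extracellular matrix, channels and transcription factors.

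SRF is a transcription factor that binds the CArG box, a short AT-rich element in the promoters of actin, other cytoskeletal and muscle genes and of growth-factor-induced immediate early genes. Its activity depends on cofactors: myocardin and the myocardin-related factors, which respond to the state of actin, and the ternary complex factors, ETS proteins that respond to MAP kinase signalling. In the weeks after birth, CMs leave the cell cycle, enlarge, build T-tubules and exchange fetal for adult isoforms of contractile proteins and ion channels.

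Srf itself was measured first. It had 68.2, 61.5 and 53.1 CPM in CTRL and 34.4, 29.2 and 10.5 CPM in KO, in the order of replicates 1 to 3, which is the order used throughout. CPM are counts per 1000000 counts of a library, after its size was corrected for composition. Every KO value was lower than every CTRL value, and KO replicate 3 was the lowest. The log2 fold change of KO against CTRL was -1.30 ± 0.36, adjusted p = 0.0628 (± SE; edgeR's quasi-likelihood test with Benjamini-Hochberg adjustment over all genes tested), which missed the threshold of 0.05. By DESeq2, another test for counts, the change passed (-1.30, adjusted p = 0.00223), and so it did in edgeR when replicate number was a block (-1.44, adjusted p = 0.022). Of 16 alternative fits, these 2 included, Srf passed in 5.

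Total counts were 16689997 to 21204212 per sample. In total, 1078 genes passed the threshold (8.59%), 501 of them higher in KO (3.99%) and 577 lower (4.60%). Outside the sarcomere and mitochondria lists, which held 161 of the genes that fell, 493 rose and 416 fell. All 1078 genes had no overlap between KO and CTRL samples, as did 32.5% of all genes tested. CM markers were abundant in all samples, with a summed level of 141162 to 146070 CPM in CTRL and 81446 to 93168 CPM in KO over 11 genes, of which the sarcomere genes Actc1, Myl3 and Myh6 fell and Cacna1c rose. The summed markers of fibroblasts (175 to 399 CPM in CTRL, 297 to 464 in KO), endothelial cells (405 to 815 and 455 to 728) and macrophages (8.14 to 13.5 and 12.7 to 18.3) overlapped between groups, and 1 of the 31 tested genes on these lists rose (Gsn, also an actin regulator). Y-linked genes were counted in CTRL replicate 1 and KO replicate 3 but hardly in the other P14 samples. At P90, 46 of 11808 genes tested passed (0.390%), and the difference of the KO effect between P14 and P90 passed for 228 of 12841 genes (1.78%). Among these were 29 of 113 genes picked by rule for this report, which, Srf and its cofactors apart, were chosen by their change at P14. In sorted bulk samples, fewer cells of a type and less RNA per cell cannot be told apart, and p-values measure the spread between these samples.

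The calls rested on all 3 KO samples. Without KO replicate 1, 2 or 3 the number of genes past the threshold fell to 207, 108 and 174, and without the 2 samples with Y-linked counts, an alternative chosen after seeing the data, it fell to 88. Of all 1078 genes, 0 changed direction under any of these. As KO and CTRL samples did not overlap in any of them, leaving out samples could hardly turn a direction, so this is no further support.

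Gene lists in 4 groups, with 1300 genes tested, were used to describe the functions. In these groups 95 genes rose and 33 fell, with a median log2 fold change of 0.09 against 0.00 over all genes tested. That median was 0.01 without CTRL replicate 2 and 0.22 without CTRL replicate 1, so its distance from all genes rested on single samples. Signalling held 45 that rose and 15 that fell of 586 (10.2% called), matrix 18 and 4 of 220 (10.0%), channels 13 and 8 of 181 (11.6%), and transcription factors 20 and 6 of 345 (7.54%). Over all genes 8.59% were called, which is close to the shares in signalling and matrix and above that in transcription factors. Calls are by edgeR without the replicate block unless another fit is named. Scaling to total counts in place of TMM factors, chosen after seeing the data, moved the median of all genes by 0.21 on the log2 scale. It gave 191 genes that rose and 20 that fell in the 4 groups, and 1405 and 319 over all genes. All 95 genes that rose passed under both scalings, as did 20 of the 33 that fell, and 0 changed direction. The 13 that did not pass with total-count scaling were Akap7, Apln, Prkar2a, Il15, Il15ra, Lamb3, Adamts3, Kcnj11, Abcc8, Atp2a2, Nr2f6, Mlxipl and Hes1.

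**Figure D1:**
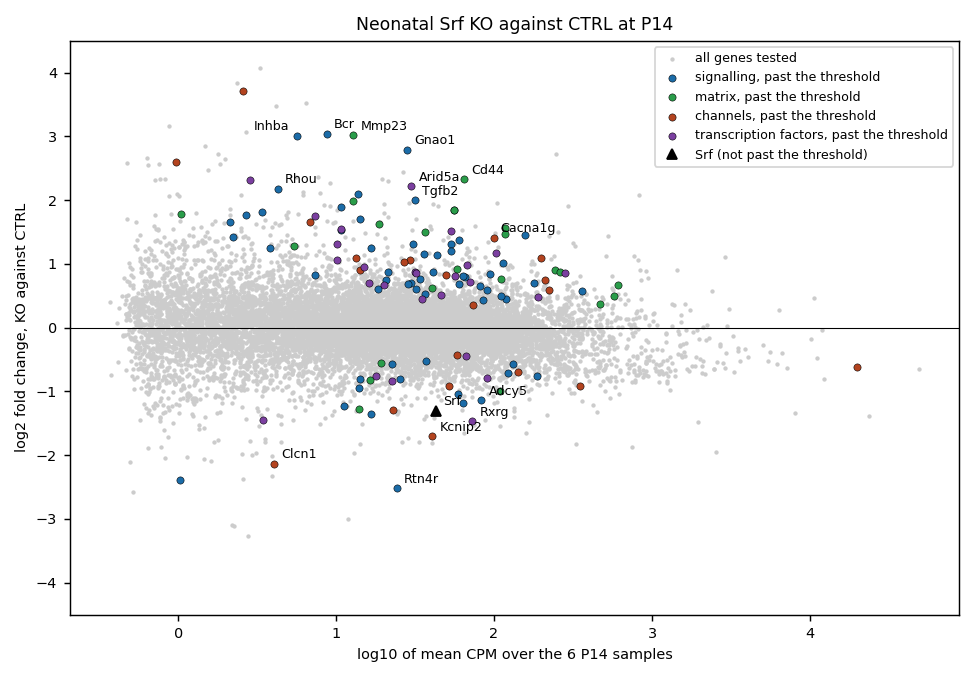
Log2 fold change of KO against CTRL at P14 (y axis) against the log10 of the mean CPM over the 6 samples (x axis), with 1 point per gene tested. Coloured points are members of the 4 function groups with an adjusted p under 0.05, 95 above and 33 below the line at 0, and Srf is the triangle at -1.30.

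**Figure D2:**
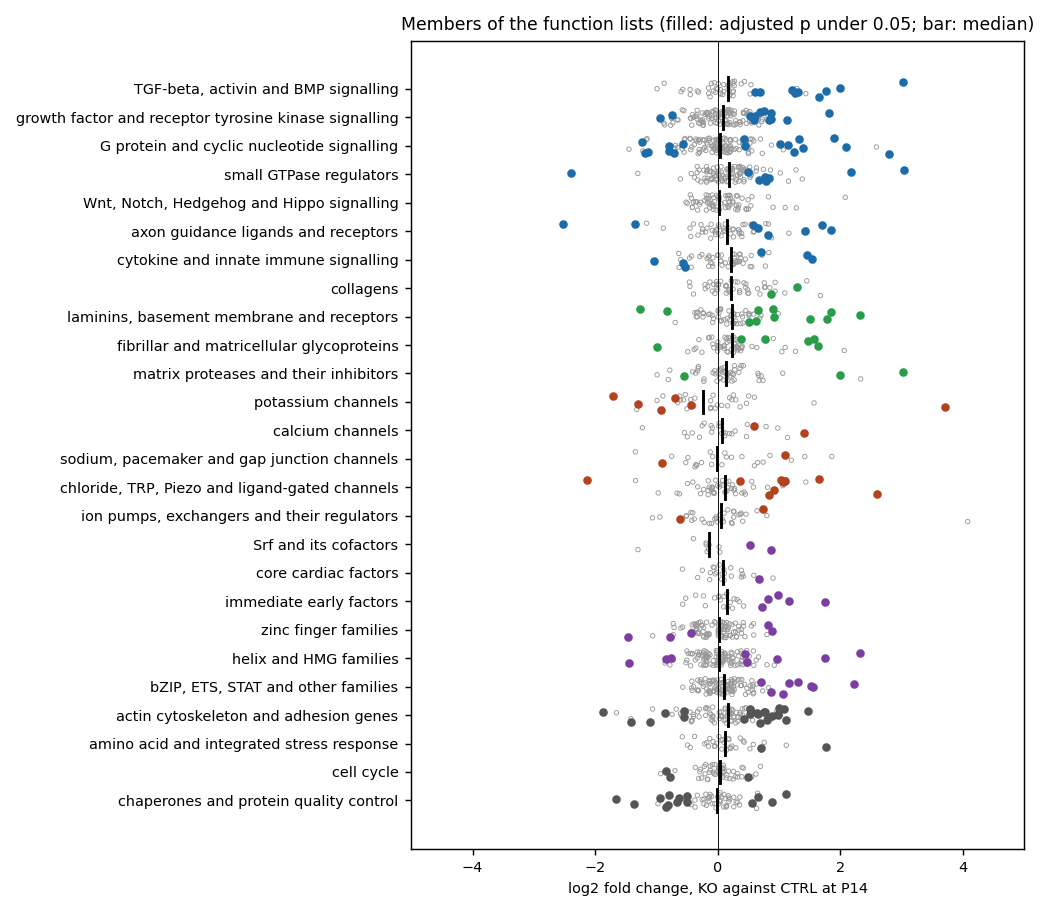
Log2 fold change of KO against CTRL (x axis) for the tested members of each list (rows), with filled points for an adjusted p under 0.05 and a bar at the median of the list. The TGF-beta list has 9 filled points, all to the right of 0, and the potassium channel list has its bar at -0.25 with 5 filled points to the left and 1 to the right.

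The CArG box in its strict form (CC and GG with 6 bases of A or T between them) was searched in RefSeq promoter windows (GRCm38.p6, which is mm10) of 300 bases, from 250 before to 50 after each start site. This pattern is its own reverse complement, so that a search of one strand covers both. It was present in 1.63% of 32851 windows. Among tested genes with a window, it was present for 14 of 470 genes that were lower in KO (2.98%), 5 of 396 that were higher (1.26%) and 1.52% of those that did not pass, while 2609 tested genes had no window in that table. In the list of actin cytoskeleton and adhesion genes, 9 of 71 had one (12.7%). Among these were 1 of the 5 that fell and 1 of the 12 that rose, and the rest did not pass. In the 4 function groups, Dusp5 and Nr2f6 had one among 23 genes that fell, and 0 of 75 that rose did. The SRF-binding proteins Fhl2 and Hopx also have the element in a promoter window, and neither gene passed. The stretches that follow show the element in capitals for Srf, for 4 genes that fell (Actg1, Dusp5, Nr2f6 and Asb2) and for Fhl1, which rose. A match is a description of the sequence only.
Srf, chr17:46556180-46556279, minus strand: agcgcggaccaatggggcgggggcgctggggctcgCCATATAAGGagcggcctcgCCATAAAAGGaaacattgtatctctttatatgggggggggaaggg
Actg1, chr11:120348541-120348620, minus strand: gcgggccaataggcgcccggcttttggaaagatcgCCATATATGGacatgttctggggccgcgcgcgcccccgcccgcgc
Dusp5, chr19:53529028-53529117, plus strand: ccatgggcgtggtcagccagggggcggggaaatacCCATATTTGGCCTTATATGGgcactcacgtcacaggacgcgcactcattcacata
Nr2f6, chr8:71381985-71382064, minus strand: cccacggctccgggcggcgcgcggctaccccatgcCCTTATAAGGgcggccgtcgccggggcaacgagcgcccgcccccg
Asb2, chr12:103356021-103356100, minus strand: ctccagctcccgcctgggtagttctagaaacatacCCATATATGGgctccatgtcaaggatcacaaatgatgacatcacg
Fhl1, chrX:56779546-56779625, plus strand: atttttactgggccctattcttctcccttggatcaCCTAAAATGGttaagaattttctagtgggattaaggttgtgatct
Srf has 2 elements, beginning 82 and 62 bases before its start site, and Dusp5 has 2 that adjoin each other, beginning 82 and 72 bases before. The element begins 90 bases before the start site in Actg1, 77 in Nr2f6, 64 in Asb2 and 102 in Fhl1.

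Ligands, inhibitors and binding proteins of the TGF-beta family were the part of signalling in which changes past the threshold went one way. Of 51 tested members of this list, 9 rose and 0 fell (17.6% higher against 3.99% over all genes, 10 and 0 by DESeq2, 12 and 1 at an unadjusted p under 0.05), with a median log2 fold change of 0.17. The lists were chosen with earlier results of these data known, so these shares are not independent of that choice. Those that rose were 4 of 13 ligands, 1 of 11 receptors and 4 of 14 inhibitors and binding proteins. By contrast, 0 of 13 SMADs and target genes passed by edgeR or DESeq2 (1 was lower at an unadjusted p under 0.05). Without KO replicate 1, 2 or 3, 4, 2 and 2 of the list rose.

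Tgfb2, a TGF-beta ligand, had 14.7, 12 and 11.2 CPM in CTRL and 48, 46.8 and 57.2 CPM in KO. Each KO sample was over 3 times as high as any CTRL sample, with a log2 fold change of 2.0 ± 0.15, adjusted p = 0.0017. Inhba, the subunit that forms activin A, had 1.4, 0.70 and 1.63 CPM in CTRL and 6.17, 13.4 and 10.6 CPM in KO. It was low in CTRL, though above the detection floor (3 counts correspond to 0.141 to 0.180 CPM), and higher in every KO sample, with a log2 fold change of 3.01 ± 0.40, adjusted p = 0.00841. Tgfb3 rose from 9.81 ± 2.95 to 23.5 ± 2.05 CPM (mean ± SD, n = 3; 1.25 ± 0.21, adjusted p = 0.0153), and so did the stress-induced ligand Gdf15 (from 1.22 ± 0.316 to 4.19 ± 1.43 CPM; 1.77 ± 0.36, adjusted p = 0.0242). The type I receptor Tgfbr1 rose less (0.60 ± 0.14, adjusted p = 0.0405). Among inhibitors, Fstl3, which binds activin, had 1.35, 1.02 and 0.691 CPM in CTRL and 3.08, 3.61 and 3.04 CPM in KO (1.65 ± 0.33, adjusted p = 0.0241). The other inhibitors and binding proteins that rose were Bambi, a pseudoreceptor (1.21 ± 0.25, adjusted p = 0.0249), the secreted follistatin-like protein Fstl1 (1.30 ± 0.23, adjusted p = 0.0167) and Ltbp3, which holds latent TGF-beta in the matrix (0.69 ± 0.12, adjusted p = 0.018). Exons of Fstl3 and Ltbp3 overlap those of neighbouring genes, so their counts are less certain. Smad7, an inhibitor induced by the pathway, was at 0.43 (adjusted p = 0.211).

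In the growth factor and receptor tyrosine kinase list, 10 of 120 tested members rose and 2 fell, which is 10.0% against 8.59% of all genes. Tgfa, a ligand of the EGF receptor, had 1.95, 1.4 and 1.13 CPM in CTRL and 5.02, 4.43 and 6.51 CPM in KO (1.82 ± 0.31, adjusted p = 0.0153), and all KO samples exceeded all CTRL samples by a wide margin. Hbegf, another ligand of that receptor family, rose less (0.53 ± 0.13, adjusted p = 0.0377), as did the receptor Erbb2 (0.87 ± 0.18, adjusted p = 0.0255) and the collagen receptor Ddr1 (0.59 ± 0.11, adjusted p = 0.0225). The angiogenic ligand Vegfb fell, with 218, 281 and 206 CPM in CTRL and 145, 157 and 115 CPM in KO (-0.75 ± 0.16, adjusted p = 0.0277). Phosphatases that switch off MAP kinases moved in both directions: Dusp6 (0.75 ± 0.18, adjusted p = 0.0414), Dusp8 (0.84 ± 0.17, adjusted p = 0.0225) and Dusp16 (0.61 ± 0.15, adjusted p = 0.0419) rose, whereas Dusp5 fell. Dusp5, a nuclear ERK phosphatase with 2 CArG elements in its promoter window, had 18.6, 16 and 20.5 CPM in CTRL and 10.1, 8.7 and 9.71 CPM in KO. Its KO values lay close together and below every CTRL value (-0.95 ± 0.15, adjusted p = 0.0139). In the PI3K and AKT branch, the regulatory subunit Pik3r3 (1.14 ± 0.25, adjusted p = 0.0284) and the pseudokinase Trib1 (0.87 ± 0.15, adjusted p = 0.0168) rose.

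Genes of G protein and cyclic nucleotide signalling were divided, with 10 of 127 tested that rose and 7 that fell (13.4% against 8.59% of all genes). Gnao1, the alpha subunit of Go, had 7.46, 9.65 and 4.02 CPM in CTRL and 42.7, 53 and 51.3 CPM in KO, the largest increase in the list (2.79 ± 0.28, adjusted p = 0.0034). Rgs11, which speeds the switching off of G alpha subunits, had 4.15, 3.88 and 5.65 CPM in CTRL and 12.9, 18.8 and 19.2 CPM in KO (1.90 ± 0.23, adjusted p = 0.00699). Grk5, a kinase that desensitises receptors, also rose, with KO replicate 3 apart from the other KO samples (4.8, 2.59 and 8.23 CPM in CTRL and 14.3, 17.8 and 34.3 CPM in KO; 2.10 ± 0.45, adjusted p = 0.0274). The receptors that rose were the thrombin receptor F2r (1.38 ± 0.17, adjusted p = 0.00732), the adenosine receptor Adora1 (1.01 ± 0.14, adjusted p = 0.00875), the alpha-adrenergic receptor Adra1b (0.45 ± 0.10, adjusted p = 0.0349) and the natriuretic peptide receptor Npr2 (0.43 ± 0.11, adjusted p = 0.0494).

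The endothelin receptor Ednra was lower in KO, with 90.8, 114 and 61.8 CPM in CTRL and 52.2, 39.6 and 25.5 CPM in KO (-1.19 ± 0.29, adjusted p = 0.0406). The purinergic receptor P2ry1 (-1.24 ± 0.18, adjusted p = 0.011) and the peptide ligand apelin, Apln (-0.80 ± 0.17, adjusted p = 0.0256), fell too. Adcy5, a main adenylyl cyclase of CMs, had 117, 107 and 118 CPM in CTRL and 63.2, 54.2 and 38.5 CPM in KO (-1.13 ± 0.17, adjusted p = 0.0124), so that every KO value was lower than every CTRL value. Adcy7, another cyclase at a low level, rose from 2.24 ± 0.404 to 5.33 ± 1.73 CPM (1.25 ± 0.31, adjusted p = 0.0445). Downstream of the cyclases, the phosphodiesterase Pde1c (-0.71 ± 0.13, adjusted p = 0.0173), the anchoring protein Akap7 (-0.80 ± 0.18, adjusted p = 0.0342) and the protein kinase A subunit Prkar2a (-0.56 ± 0.14, adjusted p = 0.05) fell. The cGMP-dependent kinase Prkg1 (1.15 ± 0.19, adjusted p = 0.015) and the calmodulin-dependent kinase Camk2b (1.32 ± 0.20, adjusted p = 0.0128) rose.

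**Figure D3:**
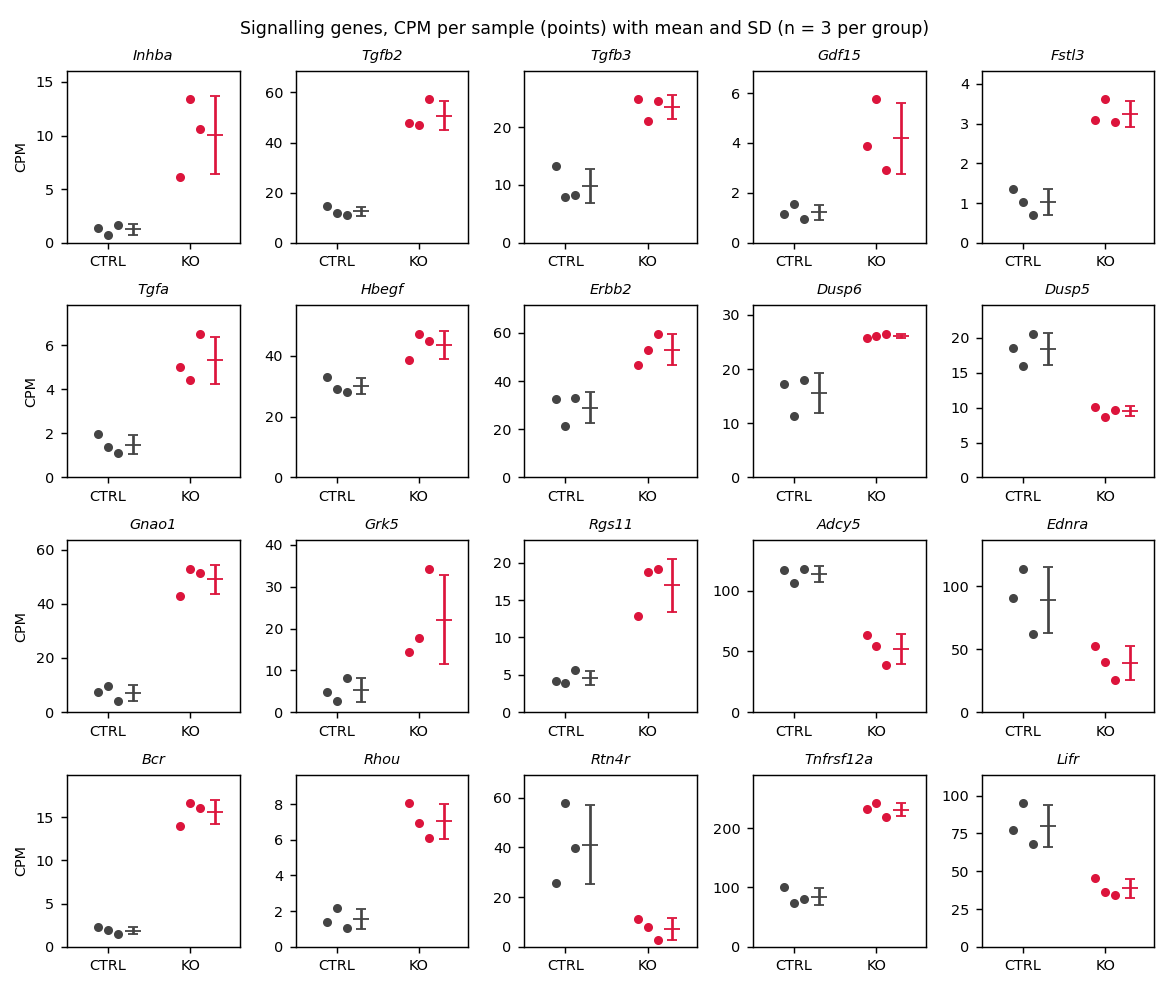
CPM per sample (y axis, from 0, 1 scale per panel) of 20 signalling genes in CTRL and KO, with points for the 3 samples of each group and the mean with its SD to their right. In each panel the groups do not overlap, with Dusp5, Adcy5, Ednra, Rtn4r and Lifr lower in KO and the others higher.

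Among small GTPases that act as switches of the actin cytoskeleton and their regulators, 7 of 104 tested rose and 1 fell. This is 7.69%, under the 8.59% of all genes, and with the replicate block 14 rose and 1 fell. Bcr, which both activates and inactivates such GTPases, had 2.3, 1.89 and 1.45 CPM in CTRL and 14, 16.6 and 16.1 CPM in KO (3.04 ± 0.22, adjusted p = 0.0017). No KO value came near the CTRL values. Rhou, an atypical GTPase, had 1.4, 2.16 and 1.07 CPM in CTRL and 8.05, 6.97 and 6.07 CPM in KO (2.18 ± 0.31, adjusted p = 0.00991). Rhob (0.79 ± 0.14, adjusted p = 0.0168), the exchange factor Kalrn (0.77 ± 0.16, adjusted p = 0.0249), the inactivating proteins Arhgap24 (0.68 ± 0.13, adjusted p = 0.0225) and Arhgap6 (0.83 ± 0.20, adjusted p = 0.0405) and the GDP dissociation inhibitor Arhgdia (0.49 ± 0.12, adjusted p = 0.0365) rose less. Arhgap9 was lower (-2.40 ± 0.51, adjusted p = 0.0273) but was at or below 2.35 CPM in every sample, and it shares exon positions with Gli1, so its counts are uncertain. In the actin cytoskeleton and adhesion list, 18 of 96 tested rose and 6 fell (25% called against 8.59% of all genes).

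Among the genes of that actin list that fell, the smooth muscle actin Acta2 had 1212, 1437 and 853 CPM in CTRL and 410.2, 349.6 and 198 CPM in KO (-1.87 ± 0.29, adjusted p = 0.0128). The cytoplasmic actin Actg1 had 220.2, 195 and 170.1 CPM in CTRL and 82.4, 98.1 and 39.8 CPM in KO (-1.41 ± 0.29, adjusted p = 0.0252). The others were the LIM protein Csrp2 (-1.10 ± 0.13, adjusted p = 0.00699), Pdlim4 (-0.54 ± 0.13, adjusted p = 0.0397), the actin-depolymerising protein destrin, Dstn (-0.86 ± 0.19, adjusted p = 0.0289), and Wdr1, which acts with it (-0.54 ± 0.12, adjusted p = 0.0304). In Srf, Acta2 and Actg1 alike, KO replicate 3 was the lowest KO sample and CTRL replicate 3 the lowest CTRL sample. A relation to the level of Srf was not tested. Those that rose included the scaffolds Sorbs2 (1.12 ± 0.14, adjusted p = 0.00732) and Sorbs3 (1.47 ± 0.30, adjusted p = 0.0249), nonmuscle myosin Myh10 (0.99 ± 0.17, adjusted p = 0.0163), the actin-binding activator Abra (0.98 ± 0.16, adjusted p = 0.0153), filamin C, Flnc (0.80 ± 0.16, adjusted p = 0.0214), and the focal adhesion protein Zyx (0.75 ± 0.13, adjusted p = 0.0153). Fhl1, which has a CArG element in its promoter window, rose (0.88 ± 0.16, adjusted p = 0.0189). At the intercalated disc, the junction between CMs, Xirp2 (1.08 ± 0.17, adjusted p = 0.0132), Ctnna3 (0.65 ± 0.14, adjusted p = 0.0302) and N-cadherin, Cdh2 (0.52 ± 0.12, adjusted p = 0.0375), rose. Acta2 is also a smooth muscle marker. The summed markers of smooth muscle cells and pericytes were 3668 to 4461 CPM in CTRL and 2582 to 3247 CPM in KO. This sum holds Acta2 itself (mean of 1167 CPM in CTRL and 319 CPM in KO), so it is no measure apart from Acta2. Of the 12 genes, 1 was called lower (Acta2) and 1 higher (Cspg4), with 8 negative and 4 positive log2 fold changes. Myh11 had 8.71, 13.8 and 35.2 CPM in CTRL and 33, 13 and 21 CPM in KO. Tagln had 3.25, 6.52 and 9.17 CPM in CTRL and 8.56, 4.88 and 7.97 CPM in KO. The part of these cells in the fall of Acta2 was not tested.

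Axon guidance genes, which act in many tissues as cues for cell movement and contact, included 6 of 56 that rose and 2 that fell. This is 14.3% against 8.59% of all genes. Rtn4r, a receptor for myelin-derived inhibitors, had the largest decrease in the signalling group, with 25.9, 57.8 and 39.9 CPM in CTRL and 11.1, 7.88 and 2.6 CPM in KO (-2.52 ± 0.47, adjusted p = 0.0204). CTRL samples differed from each other by more than 2 times, and all of them were above all KO samples. The secreted semaphorin Sema3c fell (-1.35 ± 0.29, adjusted p = 0.0284), whereas Sema3d, at a low level, rose (1.43 ± 0.37, adjusted p = 0.0494). Netrin 4, Ntn4, which binds laminin, had 22.3, 16.3 and 33.9 CPM in CTRL and 68.9, 75.3 and 117 CPM in KO (1.85 ± 0.29, adjusted p = 0.0132). Slit3 (1.70 ± 0.29, adjusted p = 0.016), the semaphorin receptors Plxna4 (0.81 ± 0.16, adjusted p = 0.0225) and Plxnb2 (0.58 ± 0.13, adjusted p = 0.0351) and ephrin B3, Efnb3 (0.65 ± 0.12, adjusted p = 0.0204), rose.

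Of 56 cytokine and innate immune genes tested, 3 rose and 3 fell, which is 10.7% against 8.59% of all genes. Tnfrsf12a, the receptor of the cytokine TWEAK, had 101, 73.5 and 79.8 CPM in CTRL and 232, 242 and 219 CPM in KO (1.45 ± 0.14, adjusted p = 0.0027). It shares exon positions with Hcfc1r1, which was at -0.03 (adjusted p = 0.948). The membrane-bound chemokine Cx3cl1 rose (1.54 ± 0.24, adjusted p = 0.0135), as did Dtx3l (0.71 ± 0.16, adjusted p = 0.0297), the sole one of 29 interferon-stimulated genes to pass by edgeR (2 rose with the replicate block and 2 by DESeq2). It overlaps Parp9 (0.83, adjusted p = 0.0541), which passed with the block (0.85, adjusted p = 0.0183). Lifr, the receptor of leukemia inhibitory factor, had 77, 95 and 67.8 CPM in CTRL and 45.8, 36.5 and 34 CPM in KO (-1.04 ± 0.16, adjusted p = 0.0132). Il15 (-0.57 ± 0.14, adjusted p = 0.0422) and its receptor chain Il15ra (-0.53 ± 0.11, adjusted p = 0.027) also fell.

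In the Wnt, Notch, Hedgehog and Hippo list, 0 of 72 tested members passed by edgeR, against 1 with the replicate block and 2 by DESeq2, all higher in KO. At an unadjusted p under 0.05, 8 were higher and 2 lower. The Hippo target Ctgf had 245, 60.6 and 149 CPM in CTRL and 220.3, 262 and 185 CPM in KO (0.56, adjusted p = 0.448). The stretch-responsive gene Ankrd1, a member of the same list, had 1703, 796 and 514 CPM in CTRL and 2133, 2127 and 1366 CPM in KO (0.90, adjusted p = 0.199). Values of both overlapped between groups, with CTRL replicate 1 within the KO range, and Ankrd1 passed with the replicate block (1.05, adjusted p = 0.0332).

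The matrix group comprised 220 tested genes, of which 18 rose and 4 fell, with a median log2 fold change of 0.19. With the replicate block 29 rose and 7 fell, against 5.71% and 6.47% of all genes. Receptors that link cells to the matrix were the part with most increases. Cd44, the hyaluronan receptor, had 26.4, 18.5 and 19.8 CPM in CTRL and 95.3, 99.6 and 129.5 CPM in KO (2.32 ± 0.18, adjusted p = 0.0017), and the heparan sulfate proteoglycan Sdc2 also rose (0.92 ± 0.12, adjusted p = 0.00823). Of 17 integrin subunits tested, 4 rose and 0 fell (5 and 0 by DESeq2, 6 and 1 at an unadjusted p under 0.05). This is 23.5% called by edgeR against 8.59% of all genes. Itga5, the fibronectin receptor subunit, had 192, 144 and 172 CPM in CTRL and 332, 329 and 288 CPM in KO (0.90 ± 0.13, adjusted p = 0.0116). The others were the laminin receptor subunits Itga3 (0.62 ± 0.14, adjusted p = 0.0365) and Itga7 (0.50 ± 0.12, adjusted p = 0.0376), and Itga10, a collagen receptor subunit under 2 CPM in all samples (1.79 ± 0.38, adjusted p = 0.0276). Itga7 shares exon positions with another gene.

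Basement membrane proteins went both ways. Lamb3, a laminin beta chain, had 19.3, 25.8 and 17.8 CPM in CTRL and 14.2, 12.3 and 8.95 CPM in KO (-0.83 ± 0.21, adjusted p = 0.0498), with no overlap between groups. Smoc2, a calcium-binding matricellular protein, fell (19.2, 18.3 and 21.9 CPM in CTRL and 6.97, 7.27 and 10.4 CPM in KO; -1.27 ± 0.19, adjusted p = 0.0116). Of 29 collagen chains tested, 1 passed by edgeR and by DESeq2 (2 with the replicate block), which is 3.45% called by edgeR, under the 8.59% of all genes. The chain that passed by edgeR and DESeq2 was Col4a5, of the basement membrane, with 197, 158 and 199.6 CPM in CTRL and 360.2, 296 and 359 CPM in KO (0.87 ± 0.14, adjusted p = 0.0132). Leprel1, a collagen prolyl hydroxylase, rose (1.29 ± 0.31, adjusted p = 0.0406). The fibrillar collagen genes of fibroblasts did not pass, and Col3a1 and Col1a1 are among the fibroblast markers summed above.

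Glycoproteins of elastic fibres and microfibrils rose in part, with 5 of 57 in this list higher and 1 lower (10.5% called against 8.59% of all genes). Fbln1, a fibulin, had 59.4, 58.4 and 60.2 CPM in CTRL and 163, 207 and 156 CPM in KO (1.56 ± 0.13, adjusted p = 0.00191), with CTRL values within a narrow range. Fbn2, a fibrillin of developing tissue, had 89.7, 42 and 53.5 CPM in CTRL and 156, 149 and 208 CPM in KO (1.47 ± 0.27, adjusted p = 0.0189). Adamtsl2, which binds fibrillin and latent TGF-beta binding protein, rose (10.2, 7.6 and 9.49 CPM in CTRL and 21.2, 33.7 and 29.3 CPM in KO; 1.63 ± 0.20, adjusted p = 0.00732), and Adamtsl5 did so less (0.76 ± 0.13, adjusted p = 0.0164). Emilin2 rose by the smallest amount (0.37 ± 0.10, adjusted p = 0.0495) and lost its call with the replicate block (0.37, adjusted p = 0.051). The small leucine-rich proteoglycan Ogn, osteoglycin, fell, with 127, 188 and 119.6 CPM in CTRL and 71.7, 83.6 and 63.1 CPM in KO (-0.99 ± 0.19, adjusted p = 0.0212).

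Of 41 matrix proteases, 2 rose and 1 fell (7.32% against 8.59% of all genes). Of 10 inhibitors, 0 passed by edgeR (1 was lower by DESeq2, with the replicate block and at an unadjusted p under 0.05). Mmp23, a membrane-bound metalloproteinase, had 2.9, 2.42 and 3.14 CPM in CTRL and 15.4, 26 and 27.1 CPM in KO (3.02 ± 0.26, adjusted p = 0.00191), the largest increase of the matrix group. Adamts19 had 6.96, 3.56 and 4.9 CPM in CTRL and 20.4, 14.8 and 26.5 CPM in KO (1.99 ± 0.29, adjusted p = 0.0116), and Adamts3, a procollagen peptidase, fell (-0.56 ± 0.14, adjusted p = 0.0443). Cd44, Fbln1, Mmp23 and Adamts19 passed in the same direction in all 16 alternatives, the fits without 1 KO sample included.

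Channels and transporters of ions were divided by type. Of 36 potassium channel genes tested, 5 fell and 1 rose (8 and 2 with the replicate block), with a median log2 fold change of -0.25. By contrast, of 56 chloride, TRP, Piezo and ligand-gated channel genes 8 rose and 1 fell. These are 16.7% and 16.1% called, against 8.59% of all genes. Most channel genes (218 of 399 listed) were below the filter on low counts.

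Subunits of the transient outward potassium current, which repolarises the mouse CM early in the action potential, were lower in KO. Kcnip2, its accessory subunit, had 69.2, 59.7 and 58 CPM in CTRL and 27.9, 20.5 and 8.95 CPM in KO (-1.71 ± 0.34, adjusted p = 0.0227). Kcnd2, a pore-forming subunit, had 24.2, 35.8 and 38.3 CPM in CTRL and 16, 14.8 and 9.11 CPM in KO (-1.30 ± 0.25, adjusted p = 0.0208). KO replicate 3 was the lowest for both. Kcne1, the accessory subunit of the slow delayed rectifier, had 421, 474 and 477 CPM in CTRL and 242, 279 and 204 CPM in KO (-0.92 ± 0.14, adjusted p = 0.0116). Its pore-forming partner Kcnq1 was at 0.29 (adjusted p = 0.276). Among subunits of ATP-sensitive channels, the pore Kcnj11 (-0.43 ± 0.10, adjusted p = 0.037) and the sulfonylurea receptor Abcc8 (-0.69 ± 0.14, adjusted p = 0.0256) fell, but neither passed with total-count scaling. The pore Kcnj8 (-0.12, adjusted p = 0.904) and the receptor Abcc9 (-0.44, adjusted p = 0.0831) did not pass, although Abcc9 passed with the replicate block (-0.45, adjusted p = 0.0319). The inward rectifier Kcnj2 had 61.6, 107 and 70.4 CPM in CTRL and 42.7, 55 and 50.01 CPM in KO and missed the threshold (-0.69 ± 0.21, adjusted p = 0.0761), which it passed with the block (-0.66, adjusted p = 0.0234). The member that rose, Kcne1l, had 0.050, 0.269 and 0.817 CPM in CTRL and 1.37, 4.12 and 8.9 CPM in KO, with CTRL replicate 1 under the detection floor. Its fitted log2 fold change (3.71 ± 0.88, adjusted p = 0.0379) is therefore no firm size: it ranged from 2.37 to 4.88 over the alternatives, passed in 1 of the 6 fits without 1 sample (that without CTRL replicate 3) and missed the threshold with Y-linked counts as a covariate.

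Pacemaker and calcium channels included genes of opposite direction. Hcn4, the main pacemaker channel of the conduction system, had 11.4, 6.74 and 7.48 CPM in CTRL and 18.4, 19.1 and 17.1 CPM in KO (1.09 ± 0.21, adjusted p = 0.0209). By contrast, Hcn2, the main isoform of ventricular CMs, had 69.4, 63 and 71.7 CPM in CTRL and 42, 39.4 and 27 CPM in KO (-0.91 ± 0.17, adjusted p = 0.0189). Cacna1g, the pore of a T-type calcium channel, had 58.8, 48.5 and 55.2 CPM in CTRL and 115, 146 and 171 CPM in KO (1.41 ± 0.16, adjusted p = 0.00548). Cacna1c, the pore of the L-type channel, had 180.2, 165 and 189.6 CPM in CTRL and 266, 246 and 295 CPM in KO (0.59 ± 0.11, adjusted p = 0.0209). The other 25 calcium channel genes tested did not pass by edgeR, with 1 more higher by DESeq2. In this list 7.41% were called by edgeR, under the 8.59% of all genes.

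Hcn4 and Cacna1g are also on the list of markers of atrial and conduction system CMs, whose summed level was 194 to 682 CPM in CTRL and 600 to 1495 CPM in KO. Much of this sum was Nppa, with 530, 269 and 56.4 CPM in CTRL and 764, 1232 and 318 CPM in KO. Nppa is on the CM list too, and the study used it as a marker of cardiac stress. Of 9 tested members, 3 rose (Myl4, Hcn4 and Cacna1g) and 0 fell (5 were higher and 0 lower at an unadjusted p under 0.05, and 3 and 0 by DESeq2). With the replicate block 6 rose, Sln (3.68, adjusted p = 0.0448) and Myl7 (3.37, adjusted p = 0.0113) among them. The atrial markers Sln and Myl7 were uneven between KO samples: Sln had 0.30, 0.70 and 0.0628 CPM in CTRL and 15.5, 3.2 and 0.0 CPM in KO. Myl7 had 1.5, 1.4 and 0.0628 CPM in CTRL and 25.9, 9.51 and 0.0542 CPM in KO. Bmp10 had 0, 0.0539 and 0 CPM in CTRL and 8.62, 0.56 and 0 CPM in KO. Myl4 had 3.35, 4.74 and 4.4 CPM in CTRL and 20.4, 10.3 and 9.11 CPM in KO, so that these 4 markers were highest in KO replicate 1 and lowest of the KO samples in replicate 3. Shox2 was at 0 in all samples. The part of atrial CMs in these results, Hcn4 and Cacna1g included, was not tested.

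Among chloride and volume-regulated channels, Clcn1, the chloride channel of the muscle membrane, had 7.21, 6.84 and 5.84 CPM in CTRL and 2.17, 1.27 and 1.08 CPM in KO (-2.14 ± 0.31, adjusted p = 0.0114), so its highest KO value was under its lowest CTRL value by more than 2 times. Among the genes that rose, the intracellular channel protein Clic5 had 132, 163 and 86.3 CPM in CTRL and 284, 249.6 and 282 CPM in KO (1.10 ± 0.21, adjusted p = 0.0209). The others included its relative Clic1 (0.83 ± 0.12, adjusted p = 0.0117), the volume-regulated channel subunits Lrrc8c (1.02 ± 0.20, adjusted p = 0.0227) and Lrrc8d (0.91 ± 0.21, adjusted p = 0.033) and the lysosomal Clcn7 (0.36 ± 0.09, adjusted p = 0.0474), which lost its call with the replicate block (0.36, adjusted p = 0.0502). Chrnb1, a subunit of the muscle acetylcholine receptor that is known from the neuromuscular junction, had 3.0, 3.34 and 3.52 CPM in CTRL and 9.31, 11.4 and 10.2 CPM in KO (1.65 ± 0.19, adjusted p = 0.00575). The ATP-gated channel P2rx5 had 18, 21.1 and 17.5 CPM in CTRL and 40.4, 43.6 and 34.3 CPM in KO (1.06 ± 0.14, adjusted p = 0.00823), and Tmem63c, near the floor in CTRL, rose (2.60 ± 0.48, adjusted p = 0.0196).

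Of 36 pumps and exchangers, 1 rose and 1 fell (5.56% called against 8.59% of all genes). The potassium-chloride cotransporter Slc12a4 rose (178, 127 and 168 CPM in CTRL and 246, 258 and 287 CPM in KO; 0.74 ± 0.14, adjusted p = 0.0221). Atp2a2, the calcium pump of the sarcoplasmic reticulum, had 22912, 23449 and 25286 CPM in CTRL and 17856, 14783 and 14099.5 CPM in KO (-0.62 ± 0.14, adjusted p = 0.0361), a difference that missed the threshold with the replicate block (-0.62, adjusted p = 0.0592). Of voltage-gated sodium channels, 0 of 11 passed by edgeR or DESeq2 (4 were lower at an unadjusted p under 0.05). Of gap junction genes, 0 of 9 passed by edgeR (2 were higher by DESeq2, 1 with the replicate block, and 3 higher and 1 lower at an unadjusted p under 0.05), Gja1 at -0.08 (adjusted p = 0.811) included.

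**Figure D4:**
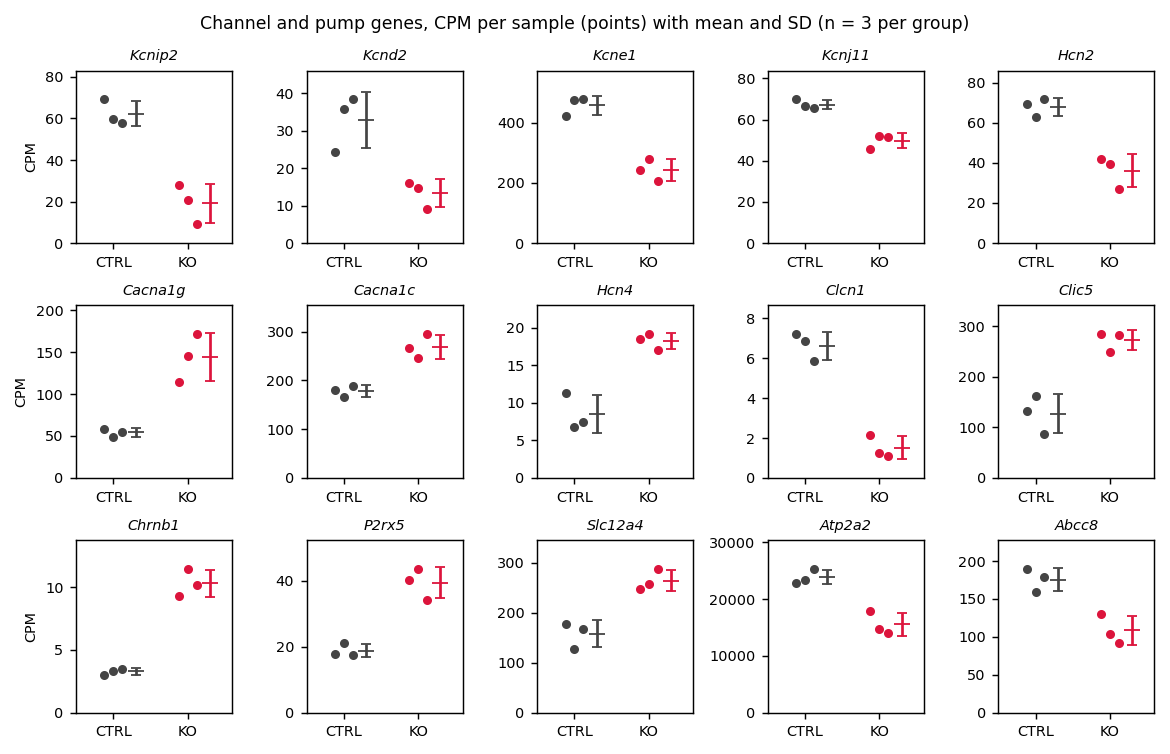
CPM per sample (y axis, from 0, 1 scale per panel) of 15 channel, accessory subunit and pump genes in CTRL and KO, with points for the 3 samples of each group and the mean with its SD to their right. Kcnip2, Kcnd2, Kcne1, Kcnj11, Hcn2, Clcn1, Atp2a2 and Abcc8 are lower in all KO samples, and the other 7 genes are higher.

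Of the coactivators of SRF, Myocd and Mkl2 rose, whereas Mkl1 and the ternary complex factors did not pass. In the list of Srf and its cofactors, 2 of 11 tested passed (18.2% against 8.59% of all genes). Myocd, myocardin, had 221, 205 and 171 CPM in CTRL and 403, 307 and 375 CPM in KO (0.86 ± 0.14, adjusted p = 0.0153). Mkl2, a myocardin-related factor, had 43.6, 32.4 and 38.3 CPM in CTRL and 55.8, 52.8 and 54.9 CPM in KO (0.52 ± 0.13, adjusted p = 0.0443). The related Mkl1 was at -0.17 (adjusted p = 0.689). The ternary complex factors Elk1 (0.03), Elk3 (-0.14) and Elk4 (0.02) had adjusted p-values of 0.925, 0.825 and 0.962, and the SRF-binding proteins Hopx (-0.15) and Fhl2 (-0.40) had 0.768 and 0.212. The signs of Mkl1, Elk1, Elk3, Elk4 and Hopx turned under at least 1 alternative. Of 24 core cardiac transcription factors, Hand2 rose (15.2, 17.5 and 13.6 CPM in CTRL and 22.6, 23.4 and 27.4 CPM in KO; 0.67 ± 0.15, adjusted p = 0.0302) and the other 23 did not pass by edgeR (2 of the 24 rose by DESeq2 and 3 with the replicate block). This is 4.17% called by edgeR, under the 8.59% of all genes. Among the 23, Nkx2-5 was at 0.06 (adjusted p = 0.832), Gata4 at 0.38 (0.13), Mef2c at -0.02 (0.947) and Tbx5 at 0.02 (0.946).

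Of 24 immediate early factors, 5 rose and 0 fell (5 and 1 by DESeq2, 6 and 1 at an unadjusted p under 0.05). This is 20.8% called by edgeR against 8.59% of all genes. Myc had 4.35, 1.83 and 3.96 CPM in CTRL and 10.1, 12.8 and 11.1 CPM in KO (1.75 ± 0.31, adjusted p = 0.0173). Atf3, induced by stress, had 81.6, 37 and 71.4 CPM in CTRL and 127, 151 and 149 CPM in KO (1.17 ± 0.26, adjusted p = 0.0302). Mafk, a small MAF protein, had 52.5, 41.9 and 41.5 CPM in CTRL and 91.6, 90.2 and 86.9 CPM in KO (0.98 ± 0.12, adjusted p = 0.00708). Klf6 (0.82 ± 0.20, adjusted p = 0.0396) and Jund (0.72 ± 0.16, adjusted p = 0.0345) rose as well. Fos, a standard SRF target, had 112, 69.3 and 166 CPM in CTRL and 80.9, 212 and 106 CPM in KO. Egr1 had 34.1, 14.1 and 38.5 CPM in CTRL and 40.9, 33.8 and 21.6 CPM in KO. The groups overlapped for both, with adjusted p-values of 0.812 and 0.846. Tissue dissociation is known to induce such genes. The summed level of 15 genes of that kind was 785 to 1279 CPM in CTRL and 1024 to 1604 CPM in KO, Atf3 was the sole one to pass by edgeR (another was lower with the replicate block), and the part of dissociation was not tested.

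In the list of bZIP, ETS, STAT, NF-kappa B and related families, 8 of 105 tested rose and 0 fell (7.62% against 8.59% of all genes). At an unadjusted p under 0.05 these counts were 18 and 3, and by DESeq2 12 and 0. Arid5a, an RNA- and DNA-binding protein that stabilises cytokine mRNA, had 12.2, 7.6 and 11.9 CPM in CTRL and 50.5, 49.6 and 47.5 CPM in KO (2.22 ± 0.18, adjusted p = 0.00191). Etv5, an ETS factor downstream of growth factors, had 40.3, 23.7 and 18.4 CPM in CTRL and 79, 80.3 and 77.8 CPM in KO (1.52 ± 0.25, adjusted p = 0.0153), with KO values close together, and Elf4 rose (1.31 ± 0.27, adjusted p = 0.0247). The bZIP factors Creb5 (1.55 ± 0.24, adjusted p = 0.013) and Bach2 (1.06 ± 0.24, adjusted p = 0.032) and the subunits of noncanonical NF-kappa B, Nfkb2 (0.86 ± 0.13, adjusted p = 0.0116) and Relb (0.70 ± 0.13, adjusted p = 0.0204), rose. Nfkb2 and Bach2 share exon positions with other genes.

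The 6 transcription factors that fell came from several families. Of 43 nuclear receptors and their coactivators, 3 fell and 0 rose by edgeR, which is 6.98% called against 8.59% of all genes. The counts were 5 and 1 by DESeq2, 5 and 0 with the replicate block, and 9 and 2 at an unadjusted p under 0.05. Those that fell by edgeR were Rxrg, a retinoid X receptor, with 91.4, 131 and 97.8 CPM in CTRL and 44.7, 44 and 27.2 CPM in KO (-1.47 ± 0.22, adjusted p = 0.0116), the coactivator Ppargc1b and the orphan receptor Nr2f6 (-0.44 ± 0.11, adjusted p = 0.0466). Ppargc1b had 117, 115 and 113 CPM in CTRL and 75.7, 62.3 and 61.9 CPM in KO (-0.79 ± 0.11, adjusted p = 0.0104). Mlxipl, the carbohydrate-responsive factor ChREBP, was lower (-0.84 ± 0.20, adjusted p = 0.0354), as was the Notch target Hes1 (22.9, 20.4 and 24.5 CPM in CTRL and 11, 14.6 and 14.2 CPM in KO; -0.77 ± 0.15, adjusted p = 0.0242). The homeobox factor Pknox2 fell (-1.46 ± 0.29, adjusted p = 0.0244), while Cux1 (0.48 ± 0.12, adjusted p = 0.0395) and Satb1 (0.45 ± 0.11, adjusted p = 0.0436) rose. Arnt2, a partner of bHLH-PAS factors, was low in CTRL and rose (1.55, 0.808 and 0.44 CPM in CTRL and 4.28, 4.88 and 5.1 CPM in KO; 2.32 ± 0.42, adjusted p = 0.0181), as did Mxd4, an antagonist of MYC (0.96 ± 0.17, adjusted p = 0.0164), and the repressor Bcl6 (0.88 ± 0.19, adjusted p = 0.0294).

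**Figure D5:**
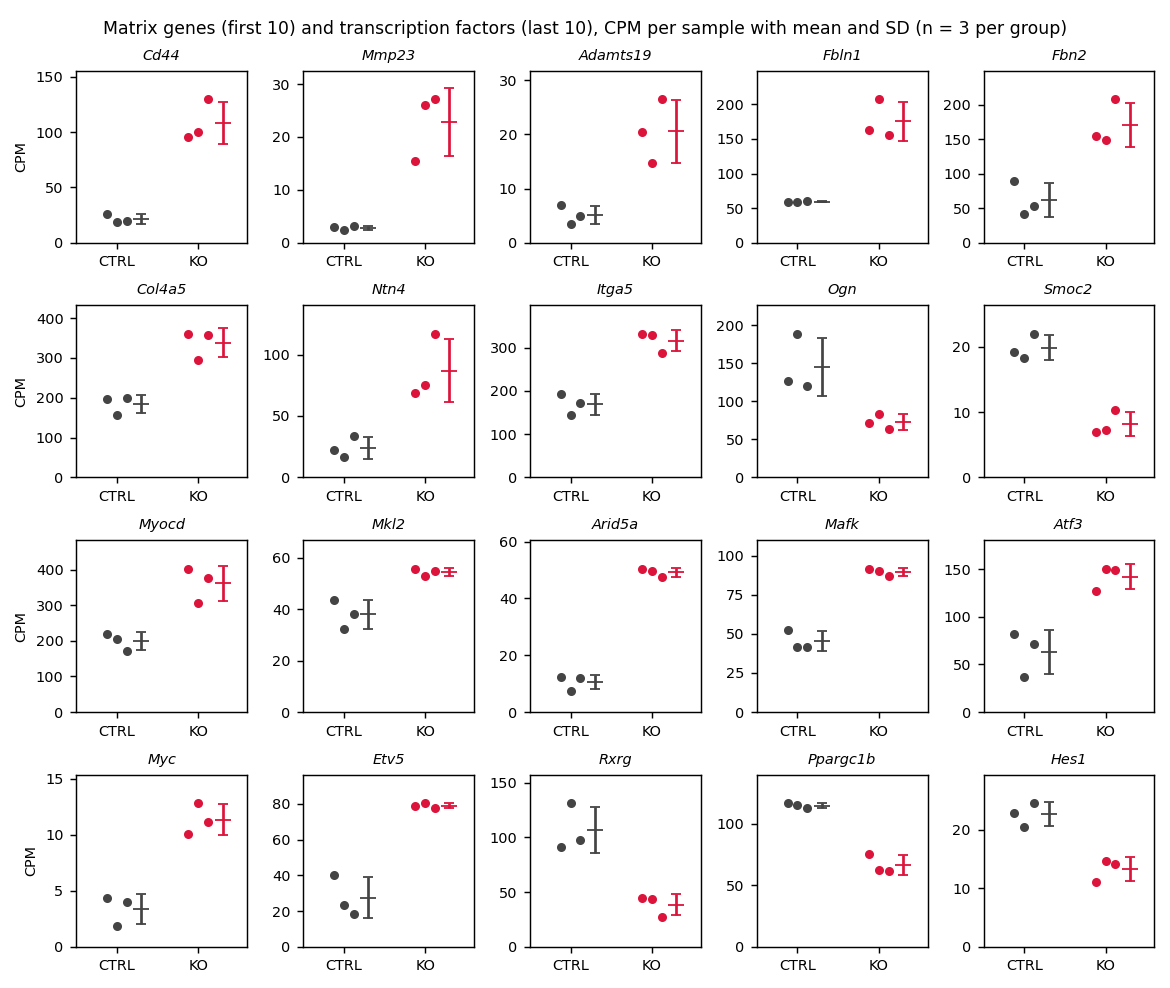
CPM per sample (y axis, from 0, 1 scale per panel) of 10 matrix genes (first 2 rows) and 10 transcription factors (last 2 rows) in CTRL and KO, with points for the 3 samples of each group and the mean with its SD to their right. Ogn, Smoc2, Rxrg, Ppargc1b and Hes1 are lower in all KO samples, and the other 15 genes are higher.

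Protein quality control was examined as a further function, and there 4 of 60 tested genes rose and 10 fell. This is 23.3% called against 8.59% of all genes. The Asb proteins, which are substrate adaptors of ubiquitin ligases, made up 4 of the decreases. Asb14 had 96.3, 93.2 and 102 CPM in CTRL and 37.5, 27.4 and 27.9 CPM in KO (-1.66 ± 0.14, adjusted p = 0.00199). The others were Asb2 (-0.85 ± 0.17, adjusted p = 0.0249), Asb10 (-0.81 ± 0.20, adjusted p = 0.0444) and Asb15 (-0.80 ± 0.18, adjusted p = 0.0345), whereas Asb6 rose (0.56 ± 0.14, adjusted p = 0.0479). The muscle ubiquitin ligases Trim54 (-0.94 ± 0.24, adjusted p = 0.0477) and Trim55 (-0.51 ± 0.10, adjusted p = 0.0222) fell. Hspb7, a small heat shock protein of the heart, had 2018, 1868 and 1585 CPM in CTRL and 3953, 4225 and 3628 CPM in KO (1.11 ± 0.14, adjusted p = 0.00699), and Hsp90aa1 also rose (0.89 ± 0.12, adjusted p = 0.00976).

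Cell cycle and integrated stress response genes had 5.36% and 5.88% called, against 8.59% of all genes. Of 56 cell cycle genes, the cyclin Ccnd3 rose (0.50 ± 0.13, adjusted p = 0.05), and Cenpf, a kinetochore protein (-0.84 ± 0.19, adjusted p = 0.034), and Wee1, an inhibitor of entry into mitosis (-0.77 ± 0.15, adjusted p = 0.0216), fell. Of 34 genes of the integrated stress response, 2 rose, Gdf15 and the phosphatase subunit Ppp1r15a (0.70 ± 0.15, adjusted p = 0.027).

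Outside all lists, the largest decreases with a mean of at least 5 CPM included Ces1d, Ckm, Itgb1bp2, Wnk2 and Ccdc69. Ces1d, a lipid-metabolising carboxylesterase, had 16, 29.9 and 17.9 CPM in CTRL and 3.83, 2.44 and 1.68 CPM in KO (-3.01 ± 0.35, adjusted p = 0.00575). The muscle creatine kinase Ckm had 3511, 4915 and 3656 CPM in CTRL and 1358, 1288 and 469.6 CPM in KO (-1.96 ± 0.37, adjusted p = 0.02). Melusin, Itgb1bp2, an integrin-binding chaperone, had 456, 581 and 503 CPM in CTRL and 173, 186 and 74.6 CPM in KO (-1.83 ± 0.31, adjusted p = 0.0153). Wnk2, a kinase that controls ion cotransporters, was at -1.74 ± 0.27, adjusted p = 0.0132, and Ccdc69 at -1.79 ± 0.17, adjusted p = 0.0027. KO replicate 3 was again the lowest of the KO samples in each of them. Among the largest increases, the receptor tyrosine phosphatase Ptpro had 3.3, 1.94 and 2.2 CPM in CTRL and 17.4, 11.8 and 9.44 CPM in KO (2.37 ± 0.31, adjusted p = 0.0081). Nlrc3, a NOD-like receptor that dampens innate signalling, had 2.55, 1.19 and 1.7 CPM in CTRL and 8.34, 7.73 and 12 CPM in KO (2.36 ± 0.33, adjusted p = 0.00972). The others included Shisa4 (2.33 ± 0.31, adjusted p = 0.00843), Klhl34 (2.27 ± 0.24, adjusted p = 0.00406) and Hspa1l (2.30 ± 0.15, adjusted p = 0.00152), a heat shock gene whose counts may include reads of near-identical relatives. Another 4 of the largest changes were in transcripts known by clone names.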

How the data were processed

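RNA of sorted CMs was amplified with SMART-Seq v4 and made into Nextera XT libraries for single-end sequencing, per the labels. Per the submitters' processing notes, CASAVA 1.8, STAR 2.5.3a and featureCounts (Subread 1.5.2) were used with mm10. The authors deposited raw counts per gene. Strand setting and multi-mapping are not given in the sources used here. In the table, 25 gene names had turned into dates and were kept, and the number of sample columns left unused was 0.

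Tests were run in edgeR 4.0.16 under R 4.3.3 (filterByExpr, TMM factors, quasi-likelihood test, Benjamini-Hochberg adjusted p under 0.05 over all genes) and DESeq2 1.42.0 as an alternative. CPM use TMM-scaled library sizes. On simulated counts over 12409 genes, 70.8% of changes of 1 on the log2 scale and 95.6% of changes of 2 were found, and 4.70% of calls were false. These shares describe the simulated counts only, and whether they hold for the sequenced samples was not tested. Total counts of 16689997 to 21204212 give a floor of 3 counts at 0.141 to 0.180 CPM, for counting error only. The stage by genotype interaction was tested over all 12 samples.

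Replicate numbers come from the titles. Deviations from the group mean correlated at 0.128, 0.122 and 0.444 between same-numbered KO and CTRL samples, so the block was taken as a pairing, although KO 1 with CTRL 2 (0.140) and KO 2 with CTRL 1 (0.163) did so as much. Values are from the fit without the block.

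Genes named are Srf and its cofactors, up to 3 increases and 3 decreases per list (adjusted p under 0.05, at least 1 CPM, no overlap), the 12 largest changes per direction outside the sarcomere and mitochondria lists, and members that complete a family. Counts of genes picked by rule leave out the members that complete a family and the genes under other observations. Some genes are not reported here. The members and lists were chosen with earlier results of these data known.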

Additional observations from a re-analysis of the deposited data

Results flagged for a closer look

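The KO effect differed between stages for 29 of the 105 genes picked by rule that had passed at P14, by the stage by genotype interaction in edgeR's quasi-likelihood test over all 12 samples (228 of 12841 genes tested, 1.78%). These genes were named for their change at P14, and the same P14 samples enter this test. Their number is therefore not independent of that choice and is not to be set against the share of all genes. Values are the log2 KO effect at P14 minus that at P90, ± SE, with the adjusted p of this difference. Stage was tied to the age at injection and to the deposited table, so these cannot be told apart. Of the 29, 3 still passed without P90 CTRL replicate 3, 3 without P90 KO replicate 2 and 8 without P90 KO replicate 1, and 0 changed direction.

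In signalling, the ligand Tgfb2 was higher in KO at P14 (2.0) than at P90 (0.29), a difference of 1.72 ± 0.22 (adjusted p = 0.00915). The difference was 2.36 ± 0.34 (adjusted p = 0.0154) for Gnao1, 2.54 ± 0.33 (adjusted p = 0.00941) for Bcr, 2.43 ± 0.37 (adjusted p = 0.0156) for Rhou and 1.44 ± 0.33 (adjusted p = 0.0465) for Cx3cl1. It was -1.70 ± 0.26 (adjusted p = 0.0156) for Dusp5, which was at -0.95 at P14 and 0.76 at P90, and -0.76 ± 0.18 (adjusted p = 0.0487) for Il15.

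Among matrix genes, the difference was 1.85 ± 0.34 (adjusted p = 0.025) for Cd44, 2.13 ± 0.35 (adjusted p = 0.021) for Mmp23 and 0.99 ± 0.18 (adjusted p = 0.0227) for Col4a5. Among channels, it was 1.24 ± 0.20 (adjusted p = 0.021) for Cacna1g, 0.85 ± 0.18 (adjusted p = 0.0361) for Cacna1c, 1.08 ± 0.18 (adjusted p = 0.021) for P2rx5 and -1.65 ± 0.31 (adjusted p = 0.0252) for Clcn1. Hcn4 was at 1.09 at P14 and -0.45 at P90, a difference of 1.55 ± 0.28 (adjusted p = 0.0227).

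Among transcription factors, the difference was 0.76 ± 0.14 (adjusted p = 0.0257) for Mafk, -1.36 ± 0.26 (adjusted p = 0.0257) for Rxrg, -1.17 ± 0.27 (adjusted p = 0.0468) for Pknox2 and -1.27 ± 0.22 (adjusted p = 0.021) for Hes1, which was at -0.77 at P14 and 0.51 at P90. Among actin and adhesion genes it was -1.37 ± 0.26 (adjusted p = 0.0252) for Csrp2, 1.05 ± 0.16 (adjusted p = 0.0156) for Sorbs2 and 1.47 ± 0.25 (adjusted p = 0.021) for Xirp2.

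Among the remaining named genes, the difference was -1.54 ± 0.16 (adjusted p = 0.00251) for the ubiquitin ligase adaptor Asb14, the smallest adjusted p of these, -2.35 ± 0.36 (adjusted p = 0.0156) for Ces1d and -1.17 ± 0.23 (adjusted p = 0.0287) for Ccdc69. It was 1.90 ± 0.43 (adjusted p = 0.0454) for Nlrc3, 1.90 ± 0.41 (adjusted p = 0.0399) for Shisa4, 1.91 ± 0.35 (adjusted p = 0.0227) for Hspa1l and 2.20 ± 0.39 (adjusted p = 0.0222) for Klhl34.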

How the results depend on the processing

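Of the 105 genes picked by rule that passed the threshold, 23 passed in every one of the 14 alternatives planned and the 2 added after seeing the data. Of these 105, 0 changed direction, which the lack of overlap between their KO and CTRL samples made likely beforehand. The total of 1078 genes was 1788 by DESeq2 (788 higher, 1000 lower), 2114 in a fit of all 12 samples (934 and 1180) and 1724 with total-count scaling (1405 and 319), chosen after seeing the data. Without 1 sample it ranged from 108 to 1020 (88 to 488 higher, 20 to 585 lower), and without the 2 samples with Y-linked counts, also chosen after seeing the data, it was 88 (71 and 17). Without CTRL replicate 1, 2 or 3 it was 776, 1020 and 1013. It was 207, 108 and 174 without KO replicate 1, 2 or 3, with as many samples left. The cause was not tested.

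The 60 signalling genes became 95 over all 12 samples, 102 with total-count scaling, 9 to 61 without 1 sample and 12 without the 2 samples with Y-linked counts. The 22 matrix genes became 36 with the replicate block, 37 with total-count scaling, 8 to 22 without 1 sample and 7 without those 2 samples. The 21 channel genes became 33 by DESeq2, 38 over all 12 samples, 4 to 23 without 1 sample and 3 without the 2 samples. The 26 transcription factors became 41 by DESeq2, 41 over all 12 samples, 48 with total-count scaling, 4 to 28 without 1 sample and 7 without the 2 samples.

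The 228 genes of the stage by genotype interaction became 912 by DESeq2, 474 without a filter, 687 with the replicate block and 4 to 378 without 1 sample, lowest without P90 KO replicate 2 (4) and P90 CTRL replicate 3 (5). With the replicate block, 1529 genes passed at P14. Among 1533 list members it ended 4 calls (Atp2a2, Clcn7, Emilin2 and Pxn) and gave 69, Srf among them.

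Signs turned only for genes that had not passed. With total-count scaling, Mkl1 was 0.037, Elk3 0.057, Hopx 0.081 and Mycn 0.013. Without the 2 samples with Y-linked counts, Mkl1 was 0.0057, Elk1 -0.11, Elk3 0.42 and Mycn 0.17. With length correction, Elk1 was -0.0024 and Elk4 -0.023. Without 1 sample, Elk1 ranged from -0.064 to 0.13, Elk3 from -0.34 to 0.29, Elk4 from -0.082 to 0.18, Hopx from -0.37 to 0.22 and Mycn from -0.45 to 0.11.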

Other observations

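Several genes outside the lists, chosen after their values were seen, belong to functions not described above. Clu, the extracellular chaperone clusterin, had 345, 295 and 299.6 CPM in CTRL and 939.7, 1272 and 1776 CPM in KO (2.09 ± 0.22, adjusted p = 0.00406). Mfge8, a bridge to phagocytes, had 229.7, 164 and 176 CPM in CTRL and 462, 466 and 452 CPM in KO (1.28 ± 0.14, adjusted p = 0.00487), and in both genes every KO sample was well above every CTRL sample. The complement-linked protease Masp1 (1.90 ± 0.16, adjusted p = 0.00191), the ferroxidase ceruloplasmin, Cp (1.59 ± 0.21, adjusted p = 0.00875), the heparan sulfatase Sulf2 (1.44 ± 0.14, adjusted p = 0.0027), the adenosine-forming enzyme Nt5e (1.44 ± 0.13, adjusted p = 0.00216) and the lipopolysaccharide receptor Tlr4 (1.70 ± 0.18, adjusted p = 0.00408) also rose. The incretin receptor Gipr, at a low level, had 2.1, 2.69 and 2.26 CPM in CTRL and 7.02, 13.7 and 9.0 CPM in KO (2.07 ± 0.29, adjusted p = 0.00991), and the parathyroid hormone receptor Pth1r, chosen likewise, was at 1.27 ± 0.20, adjusted p = 0.0131. Rcan1, an inhibitor and target of calcineurin, had 158, 182 and 204 CPM in CTRL and 410.02, 443 and 507 CPM in KO (1.32 ± 0.14, adjusted p = 0.00357).

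Genes of substrate transport and storage were among those that differed. Slc2a4, the insulin-dependent glucose transporter, had 398, 459 and 375 CPM in CTRL and 245, 265 and 175 CPM in KO (-0.85 ± 0.17, adjusted p = 0.0225), and Dgat2, which makes triglyceride, had 592, 794 and 538 CPM in CTRL and 279.6, 261 and 226 CPM in KO (-1.33 ± 0.17, adjusted p = 0.00732). Monocarboxylate carriers went in opposite directions at low levels: Slc16a3, known for lactate export, had 2.0, 2.37 and 2.01 CPM in CTRL and 5.65, 6.77 and 7.21 CPM in KO (1.62 ± 0.23, adjusted p = 0.0108), and Slc16a7 had 7.86, 5.07 and 8.04 CPM in CTRL and 2.46, 2.49 and 1.08 CPM in KO (-1.79 ± 0.36, adjusted p = 0.0238). The sterol-responsive gene Insig1 (1.07 ± 0.19, adjusted p = 0.0182) and the taurine transporter Slc6a6 (1.5 ± 0.30, adjusted p = 0.0226) rose, with CTRL replicate 1 nearer to KO for Slc6a6 (206, 82.6 and 109 CPM in CTRL and 371, 363 and 389.8 CPM in KO). Nampt (-0.88 ± 0.18, adjusted p = 0.0247) and Nmnat3 (-0.88 ± 0.14, adjusted p = 0.0132), enzymes of NAD synthesis, fell. The oxygen sensor Egln3 (-1.29 ± 0.19, adjusted p = 0.0121) and the muscle-specific ribosomal protein Rpl3l (-1.52 ± 0.38, adjusted p = 0.0466) were lower, and the clock gene Per2 was higher (1.14 ± 0.17, adjusted p = 0.0119).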
